A study of Mus musculus with 4 samples.

Results

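The 8 genes described here encode receptors best known from natural killer (NK) cells: Klrk1, Klrd1, Klrc1, Klrc2, Klre1, Klrb1c, Klrg1 and Ncr1. They were taken by symbol from the gene list of the count tables, which held 53647 genes, and each symbol matched 1 row. All of them except Ncr1 belong to the lectin-like Klr families. The tables came from single-cell RNA sequencing of the injured spinal cord of aged C57BL/6J mice, an inbred strain, in the 2 mm lesion segment 28 days after injury. The animals of 2 libraries received a control IgG antibody, and those of 2 libraries received anti-CD8, which targets the co-receptor on cytotoxic T cells. All animals carried the injury, and no uninjured cord was analysed here. The number of animals behind a library is not given in the sources used here, so tests measure the spread between libraries, which may be technical.

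NK cells are innate lymphocytes that read the balance of activating and inhibitory receptors on their surface. Klrk1 (NKG2D) is an activating receptor that signals through the adaptor Hcst and binds stress-induced ligands such as Raet1 and Ulbp1 proteins. Klrd1 (CD94) pairs with Klrc1 (NKG2A), which is inhibitory, or with Klrc2 (NKG2C), which is activating, and both pairs bind the non-classical MHC molecule H2-T23. Klre1 pairs with Klri1 or Klri2. Klrb1c carries the NK1.1 epitope by which NK cells are identified in this strain, Ncr1 (NKp46) is an immunoglobulin-like activating receptor that signals through Fcer1g, and Klrg1 is an inhibitory receptor for cadherins. Cytotoxic T cells can take up several of these receptors after repeated stimulation, and natural killer T cells carry NK1.1.

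RefSeq promoter windows (build GRCm38.p6, 250 bases before to 50 bases after the gene's start) were found for 6 of the 8 genes. The counts were made on another build, GRCm39, and these sequences were used for their letters only. 4 windows are shown because their genes stood at the opposite ends of the results: Klrk1 and Klrc1 were present in NK cells and T cells, and Klrb1c and Ncr1 were nearly absent from T cells. Capitals mark the Runx core TGTGGT or its reverse complement ACCACA, in 5′ to 3′ direction of the gene.
Klrk1, chr6:129623815-129624114, minus strand: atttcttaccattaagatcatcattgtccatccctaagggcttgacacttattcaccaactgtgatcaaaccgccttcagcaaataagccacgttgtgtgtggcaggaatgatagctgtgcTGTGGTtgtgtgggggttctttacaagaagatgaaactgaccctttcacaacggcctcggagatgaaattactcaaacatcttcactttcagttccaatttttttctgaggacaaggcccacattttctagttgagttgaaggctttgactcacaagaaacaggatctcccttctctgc
Klrc1, chr6:129678924-129679223, minus strand: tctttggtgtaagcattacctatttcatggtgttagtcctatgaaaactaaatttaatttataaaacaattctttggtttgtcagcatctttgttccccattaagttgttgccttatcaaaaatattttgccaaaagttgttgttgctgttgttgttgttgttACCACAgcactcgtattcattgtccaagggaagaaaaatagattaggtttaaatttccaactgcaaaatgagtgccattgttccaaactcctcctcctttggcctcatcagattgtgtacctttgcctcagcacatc
Klrb1c, chr6:128788592-128788891, minus strand: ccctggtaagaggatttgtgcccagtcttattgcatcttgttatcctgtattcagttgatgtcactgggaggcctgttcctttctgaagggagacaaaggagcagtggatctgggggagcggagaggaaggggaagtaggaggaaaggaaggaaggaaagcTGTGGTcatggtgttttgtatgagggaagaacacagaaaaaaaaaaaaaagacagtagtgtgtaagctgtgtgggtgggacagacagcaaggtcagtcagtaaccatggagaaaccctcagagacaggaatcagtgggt
Ncr1, chr7:4337465-4337764, plus strand: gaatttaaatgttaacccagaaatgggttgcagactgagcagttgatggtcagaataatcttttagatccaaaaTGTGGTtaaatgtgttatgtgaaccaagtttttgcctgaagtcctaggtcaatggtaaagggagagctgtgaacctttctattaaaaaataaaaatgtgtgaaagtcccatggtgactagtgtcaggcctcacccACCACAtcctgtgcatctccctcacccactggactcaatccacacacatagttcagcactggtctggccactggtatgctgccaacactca
The Runx core stood in 8 of the 9 windows of the 6 genes, in at least 1 window of each, and in 16.8% of 32851 RefSeq windows of the same length (300 bases). The windows of Klrc2 overlapped each other, as did those of Klre1 and of Ncr1, so some copies of the core were counted more than once. The T-box core AGGTGT, or ACACCT on the other strand, stood in 0 of the 9 windows and in 13.7% of all windows. The letters did not separate the receptors shared with T cells from those nearly absent from them. Klrd1 and Klrg1 had no window in the table.

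The 4 libraries held 152457679 to 170539226 UMIs (unique molecular identifiers, which count captured RNA molecules). After filtering, 27695 cells remained. Of these, 210 were NK cells, with 9 and 27 cells in the IgG libraries and 66 and 108 in the anti-CD8 libraries, and 1747 were T cells. Of the T cells, 1014 had at least 1 UMI of Cd8a or Cd8b1 (277, 496, 151 and 90 cells, in the order IgG replicates 1 and 2 and anti-CD8 replicates 1 and 2), and 733 had none (55, 227, 270 and 181). The cells without a CD8 UMI were shallower (median 6537, 6127, 5404 and 6456 UMIs against 7306, 7371.5, 6980 and 7082.5). Such a cell may therefore still have held CD8 RNA. A CD3 UMI was present in 86.4% of the T cells without a CD8 UMI and in 98.6% of those with one. Pairs of libraries shared between 7 and 23 cell barcodes. The NK cluster was named from markers that include none of the 8 genes, and the 8 genes were left out of clustering. Its cells had UMIs of 12 of 12 NK markers, which follows from the naming by these markers, Fcer1g and Klrb1b among them. Of the T cell markers, 9 of 10 had at least 1 UMI there. A UMI of Cd3d, Cd3e or Cd3g was present in 16.7% (35 of 210) of its cells (0%, 11.1%, 10.6% and 23.1% by library, the highest in anti-CD8 replicate 2). Levels are given as CPM, the UMIs of the gene scaled to the total UMIs of the population, in the same order of libraries. UMIs are tags of transcript 3′ ends and were not divided by length. Because the populations were formed from the same cells, NK cells against T cells is a description without a test.

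Klrk1, the activating receptor NKG2D, was present in all 3 lymphocyte populations. Its level was 474, 404, 407 and 408 CPM in NK cells, 319, 182, 304 and 138 CPM in T cells with a CD8 UMI, and 238, 200.5, 146 and 201 CPM in T cells without one. Every NK value lay above every T cell value, and the ranges of the T cell populations overlapped. In T cells with a CD8 UMI, the replicate 1 library of each antibody group was high and the replicate 2 library low. Klrk1 UMIs were seen in 80.3% to 92.6% of NK cells, in 30.0% to 58.9% of T cells with a CD8 UMI and in 25.6% to 34.5% of T cells without one. Microglia, which should lack the gene, had a Klrk1 UMI in 0.210% to 0.392% of cells at a median of 15731 to 19971 UMIs per cell, a greater depth than that of NK cells (7711 to 9372) or T cells (5964 to 7256.5).

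Klrd1, the shared CD94 chain, was 222, 441, 423 and 364 CPM in NK cells and 193, 120, 296 and 116 CPM in T cells with a CD8 UMI. T cells without a CD8 UMI had 79.2, 100.1, 48.2 and 98.2 CPM, below every value of the T cells with a CD8 UMI. The low NK value came from the 9 NK cells of IgG replicate 1, whose sum held 67500 UMIs. Without that library, the NK values did not overlap with those of either T cell population.

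Klrc1, the inhibitory partner, was 533, 202, 260 and 224 CPM in NK cells, 173, 202, 246 and 78.2 CPM in T cells with a CD8 UMI and 67.9, 97.2, 77.9 and 119 CPM in T cells without one. Klrc2, the activating partner, was 163, 195, 143 and 157 CPM in NK cells, 73.7, 93.2, 110.4 and 47.8 CPM in T cells with a CD8 UMI and 31.1, 72.5, 55.3 and 83.9 CPM in T cells without one. NK values of Klrc1 overlapped with those of T cells with a CD8 UMI, whereas every NK value of Klrc2 was above every T cell value. Of the UMIs of both partners together, Klrc1 made up 50.9% to 76.6% in NK cells, 62.1% to 70.1% in T cells with a CD8 UMI and 57.3% to 68.6% in T cells without one, ranges that overlapped. The split between the partners is uncertain because they are close copies. In the GENCODE vM21 transcripts, 50.8% of the 31-base words in the last 500 bases of Klrc1 also occur in Klrc2, and 22.1% of those of Klrc2 occur in Klrc1. How reads shared by both genes were counted is not given in the sources used here.

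Klre1, which lies beside Klrd1 in the same gene cluster, had its highest level in NK cells and was present in T cells. It was 237, 503, 303 and 307 CPM in NK cells, 56.5, 37.4, 74.2 and 20.3 CPM in T cells with a CD8 UMI and 42.4, 98.6, 33.3 and 53.7 CPM in T cells without one. NK values were all above 200 CPM and T cell values all below 100 CPM.

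Klrb1c, which encodes NK1.1, was 385, 323, 253 and 276 CPM in NK cells. T cells with a CD8 UMI had 3, 3, 2 and 2 Klrb1c UMIs in all, or 1.40, 0.779, 1.81 and 2.90 CPM. T cells without a CD8 UMI had 4, 21, 15 and 18 UMIs, or 11.3, 15.2, 10.6 and 15.1 CPM. A Klrb1c UMI was present in 0.605% to 1.32% of T cells with a CD8 UMI and in 0.761% to 1.48% of microglia, at unequal depth. By level, the few UMIs in T cells with a CD8 UMI stood above the 0.792, 0.722, 0.554 and 0.691 CPM of microglia in 4 of 4 libraries. These counts were no more than 3 UMIs, the limit that a count of 0 allows, so this order is uncertain. The share in T cells without a CD8 UMI, 3.70% to 5.45%, was above that of microglia in every library, although microglia were sequenced more deeply.

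Ncr1 was 489, 191, 217 and 229 CPM in NK cells, from 33, 52, 111 and 239 UMIs. T cells with a CD8 UMI had 0, 4, 0 and 0 UMIs, and T cells without one had 6, 0, 2 and 2. Between 84.6% and 96.4% of all Ncr1 UMIs of a library came from the NK cells. Klrg1 was scarce throughout, with 0, 0, 10 and 1 UMIs in NK cells, 2, 14, 2 and 0 in T cells with a CD8 UMI and 4, 6, 11 and 2 in T cells without one. The limit that a count of 0 allows (3 UMIs) is 44.4 CPM in the NK cells of IgG replicate 1, so absence of Klrg1 there was not detectable at this depth.

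**Figure D1:**
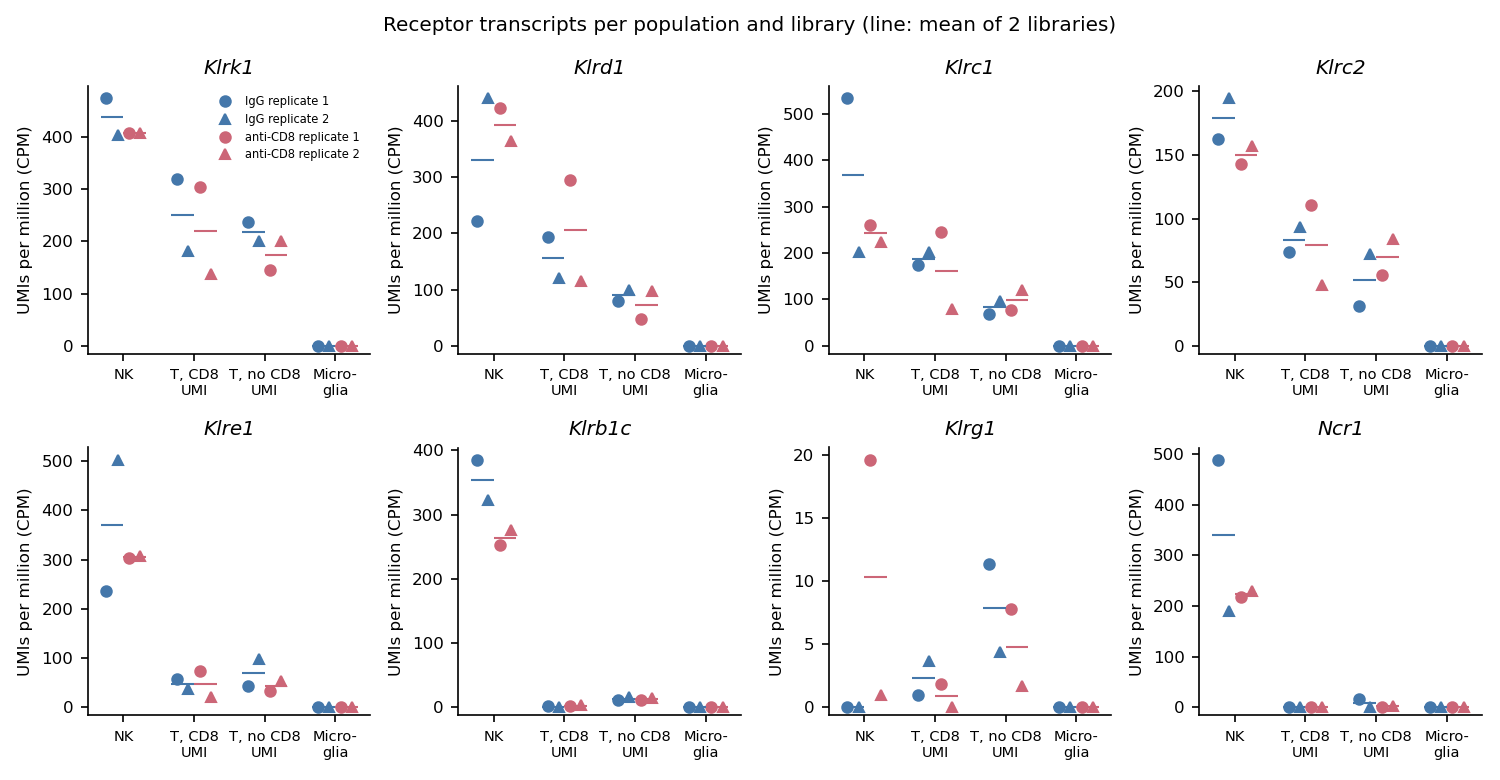
Level of each receptor gene (y axis, CPM) in NK cells, both T cell populations and microglia (x axis), 1 point per library, with the mean of the 2 libraries of a group as a line. Klrb1c and Ncr1 stand at 191 CPM or more in NK cells and near 0 elsewhere, while Klrk1, Klrd1, Klrc1 and Klrc2 are present in T cells as well.

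Receptors were also counted within single cells after each cell was thinned to 2000 UMIs, which left out 1 shallower NK cell in each anti-CD8 library and 4, 23, 30 and 20 shallower T cells. NK cells had on average 2.89, 2.96, 2.68 and 2.86 of the 8 genes with a UMI. T cells with a CD8 UMI had 1.11, 0.897, 1.31 and 0.621, and T cells without one had 0.566, 0.694, 0.461 and 0.720. The NK values varied little between libraries, and both T cell populations lay below all of them. At least 2 receptor genes were found in 81.5% to 88.9% of NK cells, in 19.5% to 41.3% of T cells with a CD8 UMI and in 14.1% to 22.0% of T cells without one. No microglial cell of any library had 2. In anti-CD8 replicate 2, T cells with a CD8 UMI had fewer receptor genes per cell than T cells without one, against the order in the other 3 libraries.

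**Figure D2:**
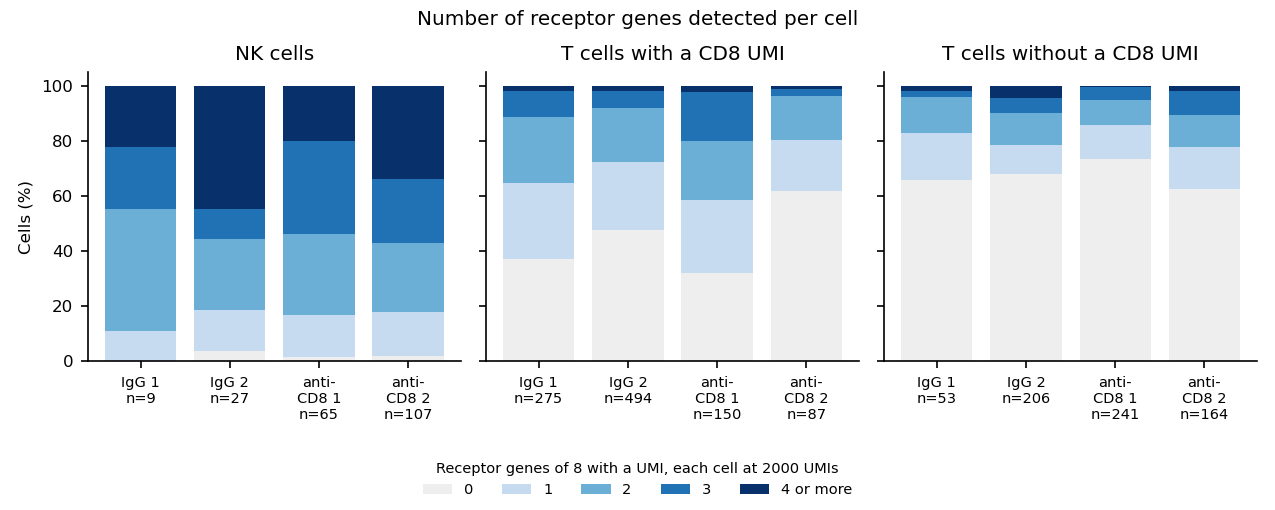
Share of cells (y axis, percent) by the number of the 8 receptor genes with a UMI at 2000 UMIs per cell (shades), for each library (x axis, with its number of cells) and population. In every library over 80% of the NK cells had at least 2 receptor genes, against at most 41.3% of either T cell population.

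Klrd1 was found more often in T cells with a Klrc1 UMI than in those without. Among T cells with a CD8 UMI, at full depth and over all libraries, Klrd1 was found in 60.9% of the 499 cells with a Klrc1 UMI and in 35.9% of the 515 cells without. Among T cells without a CD8 UMI, Klrd1 was found in 49.6% of the 137 cells with a Klrc1 UMI and in 11.7% of the 596 cells without. Cells with a Klrc1 UMI were somewhat deeper (median 7625 against 6982 UMIs in the former population, and 6608 against 5842 in the latter). At 2000 UMIs per cell the shares were 35.7% against 21.5% with a CD8 UMI and 25.3% against 7.69% without. In NK cells the corresponding shares were 78.3% and 83.3% at full depth, with no higher share beside Klrc1. For Klrc2, the other partner, Klrd1 was found at full depth in 63.6% of the cells with a Klrc2 UMI and 40.9% of those without among T cells with a CD8 UMI, and in 56.6% against 12.4% among the others. At 2000 UMIs these shares were 28.8% against 24.7% and 23.5% against 8.22%, and in IgG replicate 1 with a CD8 UMI the order was the opposite (25.7% against 30.8%). Klrk1 was more frequent in T cells with a Klrd1 UMI, at 64.8% against 21.9% with a CD8 UMI and 76.1% against 18.8% without. The relations of Klrd1 with Klrc1 and with Klrk1 had this direction in 4 of 4 libraries of each T cell population, at full depth and at 2000 UMIs. Of the T cells without a CD8 UMI, 34.7% lay in a smaller cluster, described below, that had 0, 1, 5 and 1 Klrd1 UMIs. The relations were not read within each cluster, so they may reflect the mix of clusters. Cells of 1 library share their source, so no test was made.

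For Klrk1, Klrd1, Klrc1, Klrc2 and Klre1, the share of UMIs in NK cells was higher in both anti-CD8 libraries, also where totals overlapped. For Ncr1 this share was 84.6%, 92.9%, 92.5% and 96.4%, and the groups overlapped. Klrk1 UMIs amounted to 6.19, 8.77, 6.81 and 5.94 CPM over all UMIs in a library's kept cells, so the groups overlapped. NK cells held 3.64% of these UMIs in IgG replicate 1 (95% exact binomial interval 2.50 to 5.10, counting error only) and 8.91% in IgG replicate 2 (7.38 to 10.6). They held 21.9% in anti-CD8 replicate 1 (19.3 to 24.7) and 46.1% in anti-CD8 replicate 2 (42.8 to 49.3). T cells with a CD8 UMI held 77.7%, 56.7%, 35.4% and 10.3%. The groups were apart in these 2 sources, in opposite directions. For NK cells, the share of all genes set apart in this way is given below. For T cells with a CD8 UMI it was not counted. T cells without a CD8 UMI held 9.56%, 22.4%, 21.7% and 25.8%, and there the groups overlapped.

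The other shared receptors followed the same order. NK cells held 2.65%, 12.8%, 24.1% and 48.3% of Klrd1 UMIs, 7.73%, 5.46%, 24.8% and 52.1% of Klrc1 UMIs, 5.56%, 10.04%, 25.4% and 53.9% of Klrc2 UMIs, and 9.47%, 31.1%, 49.8% and 75.5% of Klre1 UMIs. For all 5 genes both anti-CD8 libraries were above both IgG libraries, as for 48.9% of the 20362 genes with at least 20 UMIs in the kept cells of each library. The median NK share of those genes was 0%, 0.0484%, 0.173% and 0.408%. With 2 libraries against 2 an exact permutation test cannot go below p = 0.33, so no p is given. These shares combine how many cells of each population there were with how much RNA each held. The levels above separate the latter, and the numbers of NK cells (9 and 27 against 66 and 108) and of T cells with a CD8 UMI (277 and 496 against 151 and 90) the former.

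Of the genes nearly absent from T cells, Ncr1 amounted to 0.274, 0.398, 0.862 and 1.59 CPM over the whole library and Klrb1c to 1.34, 1.88, 1.93 and 3.11. Both anti-CD8 libraries were above both IgG libraries for each, as for 24.8% of the 20362 genes. NK cells held 13.7%, 33.3%, 48.0% and 59.5% of the Klrb1c UMIs. Outside the NK cells, the T cells and an unnamed cluster of 225 cells with dendritic and B cell genes, the libraries held 157, 152, 122 and 176 Klrb1c UMIs, most of them in unnamed clusters, and microglia held 36, 30, 23 and 36 of these.

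**Figure D3:**
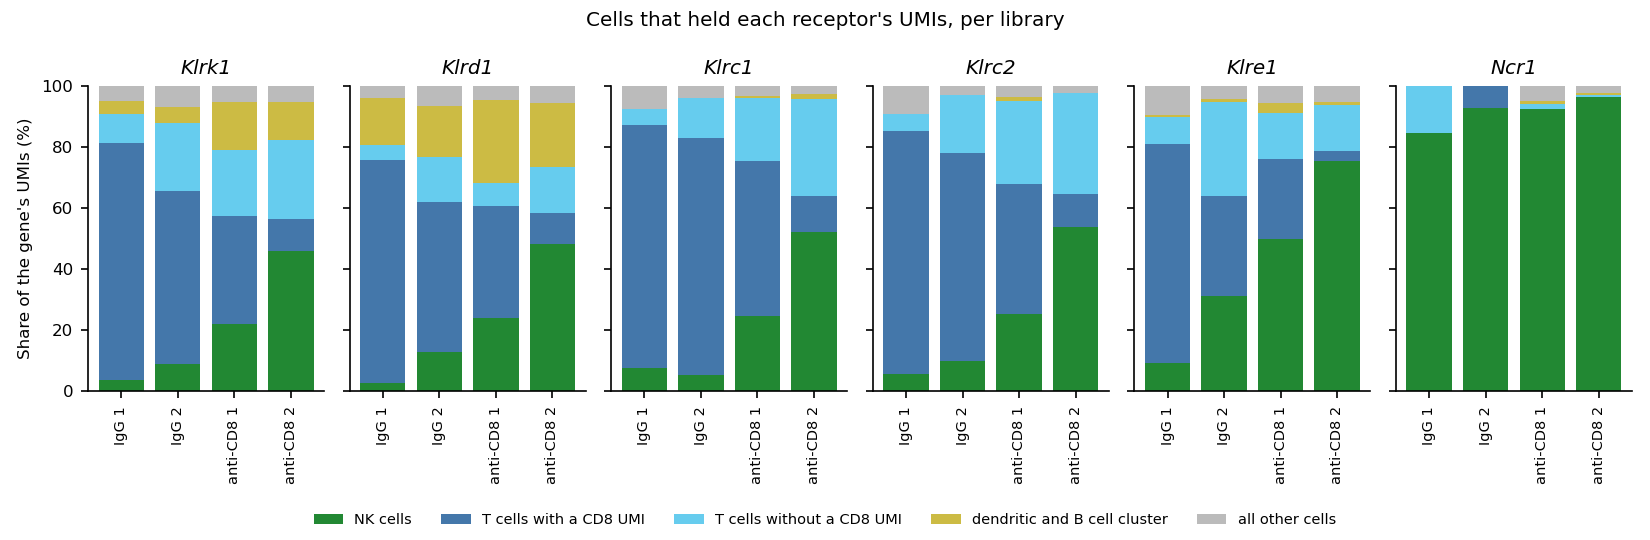
Share of each gene's UMIs (y axis, percent) that lay in NK cells, both T cell populations, an unnamed cluster with dendritic cell and B cell genes, and all other cells, for each library (x axis). The NK part of Klrk1 is 3.64% and 8.91% in the IgG libraries and 21.9% and 46.1% in the anti-CD8 libraries, and the part of T cells with a CD8 UMI is 77.7% and 56.7% against 35.4% and 10.3%.

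The antibody groups were then compared within each population, which asks whether the remaining cells of a kind carried more or less of a receptor. The UMI sums of each library entered the quasi-likelihood test of edgeR, and p-values were adjusted by Benjamini-Hochberg over all genes tested, with calls at an adjusted p under 0.05. A positive log2 fold change means a higher level after anti-CD8. None of the 8 genes was called in any population with all libraries.

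In NK cells, 7 of the 8 genes passed the expression filter and 0 were called, against 1 of 5519 genes overall (0.0181%; 283 at an unadjusted p under 0.05). Klrk1 had the value closest to 0, -0.02 (SE 0.21, adjusted p = 0.999, edgeR). The other 6 lay between -0.39 (Klre1, SE 0.27) and 0.13 (Klrd1, SE 0.27). Without IgG replicate 2, the IgG group was represented by 9 NK cells and Klrc1 was called lower (-0.98, SE 0.29, adjusted p = 0.0301, edgeR), which rests on the 533 CPM of those cells.

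In T cells with a CD8 UMI, 5 of the genes were tested and 0 were called, and 0 of 9132 genes were called overall (0%; 610 at an unadjusted p under 0.05; DESeq2 called 15). Klrd1 was at 0.44 (SE 0.37) and Klrk1 at -0.15 (SE 0.35), with adjusted p of 0.874 and 0.979 in edgeR. For Klrk1, 95% limits (±1.96 SE) ran from -0.84 to 0.55. For both genes the anti-CD8 libraries differed from each other by more than the group means did. Without anti-CD8 replicate 1, Klrc1 was called lower (-1.26, SE 0.21, adjusted p = 0.0108, edgeR).

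In T cells without a CD8 UMI, 7 genes were tested and 0 were called, with 0 of 8910 genes called overall (0%; 264 at an unadjusted p under 0.05; DESeq2 called 0). The lowest value was that of Klre1, -0.90 (SE 0.32, adjusted p = 1.00, edgeR). It was called lower without IgG replicate 1 (-1.17, adjusted p = 0.0362) and without anti-CD8 replicate 2 (-1.25, adjusted p = 0.0437). The other 6 lay between -0.36 and 0.20.

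In all T cells together, 6 genes were tested and 0 were called, while 134 of 10322 genes were called overall (1.3%). Klrb1c was 2.80, 4.59, 6.75 and 10.6 CPM, without overlap between the groups, as for 42.1% of the genes tested, and its log2 fold change was 1.10 (SE 0.41, adjusted p = 0.291, edgeR). Klrc1 was at -0.40 (SE 0.16, adjusted p = 0.336). These sums hold different proportions of the T cell populations in the 2 groups. Without IgG replicate 2, Klrk1 was called lower (-0.69, SE 0.17, adjusted p = 0.0026), and without anti-CD8 replicate 1, Klrc1 was (-0.71, SE 0.16, adjusted p = 0.0486, edgeR in both cases).

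Within T cells, those with a CD8 UMI were compared with those without in the same libraries, with the library as a block. 3 of the 7 genes tested were called, against 1232 of 9449 genes overall (13%). Klrd1 was higher in T cells with a CD8 UMI, by 1.12 on the log2 scale (SE 0.30, adjusted p = 0.026, edgeR), and in 4 of 4 libraries. Klrc1 was higher by 0.96 (SE 0.26, adjusted p = 0.0262, edgeR) and in 3 of 4 libraries, the exception being anti-CD8 replicate 2. Klrb1c was lower, at -3.14 (SE 0.51, adjusted p = 0.000916, edgeR), in 4 of 4 libraries. All 4 libraries were on the same side for 29.7% of the genes tested. Klrk1 (0.26, SE 0.19), Klrc2 (0.46, SE 0.23), Klre1 (-0.33, SE 0.34) and Klrg1 (-1.48, SE 0.68) did not pass, with adjusted p of 0.213 to 0.646 in edgeR, and Ncr1 had too few UMIs to be tested. The antibody effect was not shown to differ between the T cell populations: 0 of 7 genes had a significant interaction, against 2 of 9449 genes overall (0.0212%; 463 at an unadjusted p under 0.05). Both anti-CD8 libraries weighed on this: without anti-CD8 replicate 2 the interactions of Klrd1 (1.99), Klre1 (2.00) and Klrk1 (0.95) were called, and without anti-CD8 replicate 1 those of Klrc1 (-1.76) and Klrc2 (-1.38).

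The calls of Klrd1 and Klrc1 did not hold in every setting. The T cells came from 2 clusters. The smaller cluster, 261 cells with UMIs of gamma-delta and Il17-type genes, made up 34.7% of the T cells without a CD8 UMI and 0.69% of those with one. Within the larger cluster of 1486 cells alone, Klrb1c was called (-3.80, SE 0.52, adjusted p = 0.000674, edgeR), while Klrd1 was at 0.46 (SE 0.29, adjusted p = 0.466) and Klrc1 at 0.43 (SE 0.31, adjusted p = 0.54). Klrk1 was then at -0.20 (SE 0.21) and Klre1 at -1.01 (SE 0.32, adjusted p = 0.0938). DESeq2 called Klrb1c alone of the 8 genes in the comparison of all T cells (-3.11, adjusted p = 0.000793), and so did edgeR without IgG replicate 1 (-3.21, adjusted p = 0.00473). With the T cells divided after thinning, Klrd1 (0.84, adjusted p = 0.0602) and Klrc1 (0.70, adjusted p = 0.0501) were not called and Klrg1 was (-2.05, adjusted p = 0.0416, edgeR). Without IgG replicate 2, Klrc1 was not called (0.87, adjusted p = 0.132). Klrc2 was called without anti-CD8 replicate 2 (0.80), and Klre1 without anti-CD8 replicate 1 (-0.90). With the stricter cell filter Klrd1 and Klrc1 were called (1.56 and 1.37) and Klrb1c had too few UMIs to be tested.

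**Figure D4:**
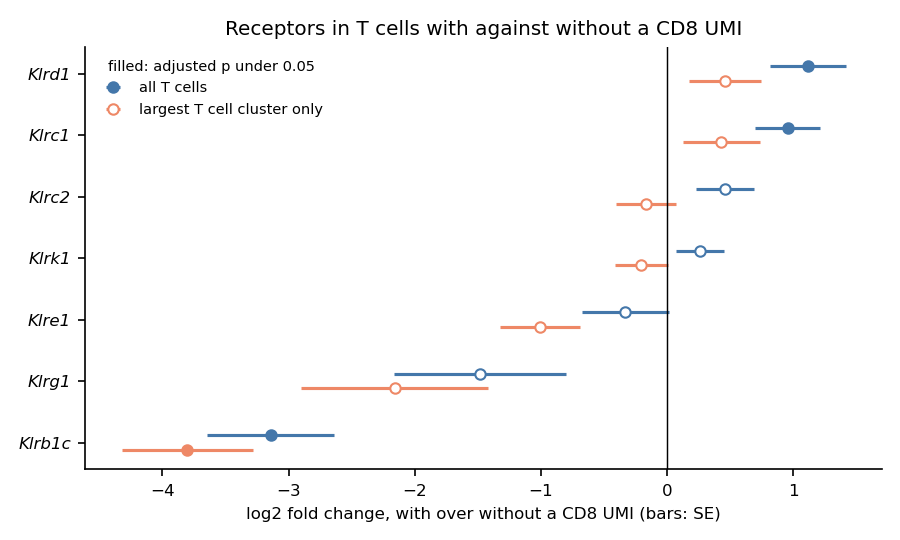
Log2 fold change of 7 receptor genes in T cells with over without a CD8 UMI (x axis, bars are SE; y axis, genes), for all T cells and for the larger T cell cluster alone, with filled points at an adjusted p under 0.05 (edgeR). Klrd1 and Klrc1 are past the threshold in all T cells only, and Klrb1c in both.

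The smaller T cell cluster carried a narrow set of these receptors. Klrk1 was 68.2, 73.5, 97.5 and 43.3 CPM there, and it was detected in 23.8% of the cells. Klrd1 had 0, 1, 5 and 1 UMIs, and Klre1, Klrb1c and Klrg1 had 0 in all libraries. Klrc1 had 0 and 2 UMIs in the IgG libraries (21 and 70 cells) and 43 and 11 in the anti-CD8 libraries (105 and 65 cells), in 18.1% and 7.69% of the anti-CD8 cells. Klrc2 had 0 and 0 against 13 and 7 UMIs. Klrc1 was thus seen there mostly without its Klrd1 partner. No test was made on this small cluster. The share of all genes that set the antibody groups apart in it was not counted, so these counts are not read as an antibody difference.

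T cells without a CD8 UMI were further read by single genes, a division chosen after their values were seen and given as shares of cells over all libraries with 95% exact binomial intervals. Klrk1 was found in 16.8% (11.8 to 22.9) of the 190 cells with a Cd4 UMI and in 34.1% (30.1 to 38.2) of the 543 cells without one. In 3 of 4 libraries the share was lower in cells with a Cd4 UMI, and in anti-CD8 replicate 2 it was 33.3% against 28.8%. In the 293 cells of the larger cluster with neither CD8 nor Cd4 UMIs, Klrk1 was found in 42.7% (36.9 to 48.5) and Klrb1c in 9.90% (6.73 to 13.9). Their summed level of Klrk1 was 494, 379, 325 and 384 CPM, beside 313, 181, 320.0 and 135 CPM in T cells with a Cd8b1 UMI of the same libraries. The share of Klrk1 in these cells was close to the 42.5% of T cells with a Cd8b1 UMI, with overlapping intervals. Cells with a UMI of Zbtb16, the transcription factor of innate-like T cells, had Klrk1 in 35.9% (30.7 to 41.4) and Klrd1 in 13.3% (9.80 to 17.5).

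Among T cells with a CD8 UMI, 966 had a Cd8b1 UMI and 48 had Cd8a UMIs only. Klrk1 was found in 42.5% (39.4 to 45.7) of the former and in 43.8% (29.5 to 58.8) of the latter. Klrc1 was found in 50.2% of the former and 29.2% of the latter. The 48 cells came as 9, 16, 13 and 10 cells from the 4 libraries, too few for values by library.

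Klrd1 and Klrk1 were also present outside the NK and T cells, among others in an unnamed cluster of 225 cells. Its leading genes included Cd209a and Ccr7, which mark dendritic cells, and immunoglobulin and Cd79a transcripts, which mark B cells. Klrd1 was 230, 262, 171 and 254 CPM in this cluster and Klrk1 94.0, 104, 103 and 179 CPM, in the order of the libraries. The Klrd1 values were in the range of T cells with a CD8 UMI, and the groups overlapped. Klrc1 had 0, 0, 3 and 7 UMIs, Klrc2 had 0, 1, 4 and 0, and Klrb1c had 1 UMI in all. This cluster held 15.5% to 27.1% of all Klrd1 UMIs of a library. An unnamed cluster of 269 cells led by cell-cycle genes also held 95 UMIs of Klrk1 and 49 of Klrd1, at 3.97 to 20.2 CPM for Klrk1. In it, 25 cells had a CD3 UMI, and of these 8 had Klrk1 and 12 had Klrd1.

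Within the unnamed cluster with dendritic and B cell genes, cells with a UMI of dendritic cell genes were read separately. Klrd1 was found in 85.9% (95% exact interval 75.0 to 93.4) of the 64 cells with a UMI of Xcr1 or Clec9a, which mark a class of conventional dendritic cells, and Klrk1 in 71.9% (59.2 to 82.4). In the 53 cells with a Cd209a UMI and neither of those, Klrd1 was found in 86.8% (74.7 to 94.5) and Klrk1 in 64.2% (49.8 to 76.9). Klrc1 was found in 1 cell of each set and Klrb1c in 0 cells of either. The 39 cells of the cluster with a CD3 UMI had Klrd1 in 23.1%, at a median of 1439 UMIs, far shallower than the median of 19120 and 15349 UMIs in the other sets. The division by these genes was chosen after their values were seen, and doublets of dendritic cells with lymphocytes were not tested beyond the removal of the highest doublet scores.

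**Figure D5:**
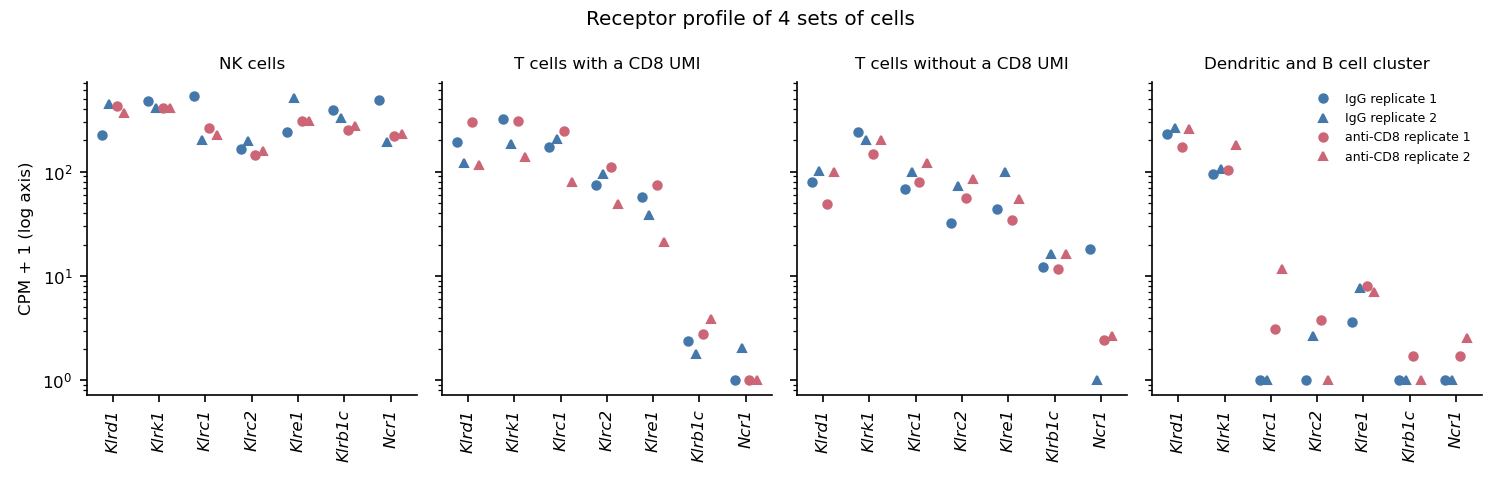
Level of 7 receptor genes (x axis) as CPM + 1 on a log axis (y axis), 1 point per library, in NK cells, both T cell populations and the unnamed cluster with dendritic cell and B cell genes. The cluster has Klrd1 at 171 to 262 CPM and Klrk1 at 94.0 to 179 CPM, while Klrc1, Klrc2, Klrb1c and Ncr1 are at or near 0.

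The adaptors of these receptors were read from a list of 16 signalling genes. None of the 15 tested in all T cells was called between the antibody groups. In the comparison by CD8 UMI, 3 of 15 were higher and 2 lower, beside 4.77% and 8.27% of all genes. Hcst, the adaptor of Klrk1, was 732, 617, 690 and 626 CPM with a CD8 UMI and 430, 494, 493 and 508 CPM without, higher by 0.51 on the log2 scale (SE 0.09, adjusted p = 0.00201, edgeR). Fyn, a Src-family kinase, and Ptpn6, the phosphatase SHP-1 recruited by inhibitory receptors, were also higher (0.41 and 0.60), and Pik3r1 and Zap70, the T cell receptor kinase, were lower (-0.50 and -0.38). Fcer1g, the adaptor of Ncr1, was 1541, 1483, 1576 and 1657 CPM in NK cells and 56.3 to 106 CPM in T cells with a CD8 UMI. It is also 1 of the markers by which the NK cluster was named. Tyrobp was 971 to 1160 CPM in NK cells and 100.4 to 197 CPM in T cells with a CD8 UMI.

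Of 18 other Klr genes, 6 were tested in the comparison by CD8 UMI, 0 were higher and 3 were lower in T cells with a CD8 UMI (Klra1, Klra9 and Klri2), beside 4.77% of all genes tested called higher and 8.27% lower. Klra9, a Ly49 receptor, was 11.7, 0.26, 0.905 and 2.90 CPM with a CD8 UMI and 39.6, 52.2, 18.4 and 38.6 CPM without (-3.62, SE 0.56, adjusted p = 0.000664, edgeR). Klri2, a partner of Klre1, was at -1.95 (SE 0.49, adjusted p = 0.0189). Klra genes are near-identical copies and their UMIs may be divided among them.

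Among 14 other receptors of NK cells and cytotoxic T cells, 12 were tested in this comparison, in which 4.77% of all genes were higher and 8.27% lower. Cd160, Slamf7, Tigit and Cd27 were higher in T cells with a CD8 UMI, by 1.77, 1.57, 0.73 and 0.69 on the log2 scale. Il18r1, the interleukin-18 receptor, was lower, at 54.6, 84.4, 71.5 and 117 CPM against 532, 420.0, 531 and 463 CPM (-2.55, SE 0.17, adjusted p = 8.34e-07, edgeR). It was the only gene of this list called between the antibody groups in all T cells. It was higher there after anti-CD8 (1.14, SE 0.15, adjusted p = 0.00602, edgeR), in a contrast that called 1.3% of 10322 genes. The sums of all T cells held different proportions of the T cell populations in the 2 groups. In T cells with or without a CD8 UMI alone, 0 genes were called between the antibody groups. The part of these proportions in the calls of all T cells was not tested. Among 10 transcription factors, read beside the same 4.77% and 8.27%, Eomes was higher (1.18) and Gata3, Ikzf2 and Zbtb16 were lower (-0.72, -1.72 and -4.78) with a CD8 UMI. Zbtb16 was 515, 468, 398 and 512 CPM in T cells that lacked a CD8 UMI, and 0.467, 5.97, 17.2 and 97.1 CPM in those with one, and in all T cells it was 73.3 and 128 CPM after IgG against 231 and 359.7 CPM after anti-CD8 (adjusted p = 0.0171, edgeR). The natural killer T cell and gamma-delta marker lists moved with this contrast: the summed level of the 4 natural killer T cell markers was 409 to 537 CPM without a CD8 UMI and 1.40 to 97.1 CPM with one, nearly all of it Zbtb16 itself, and that of the 9 gamma-delta markers was 615 to 1586 CPM against 0.467 to 53.6 CPM. In T cells with a CD8 UMI, Trav11 and Il4 were at 0. Their part in the receptor differences was not tested.

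Ligands of the receptors were read across the named cell types of the tissue. H2-T23, the ligand of the Klrd1 pairs, averaged 252 CPM in NK cells, 225 CPM in T cells, 200.1 CPM in endothelial cells and 187 CPM in fibroblasts. By library it was 459, 213, 159 and 175 CPM in NK cells and 305, 235, 174 and 188 CPM in T cells. The highest NK value came from 31 UMIs in the 9 NK cells of IgG replicate 1, so the first rank of NK cells rests on that library. Among the Klrk1 ligands, Raet1e averaged 239 CPM in T cells, 53.7 CPM in NK cells and 23.2 CPM in microglia. Raet1e thus had its highest average in T cells, many of which had a UMI of its receptor. It was 170, 183, 218 and 185 CPM in T cells with a CD8 UMI and 246, 393, 327 and 302 CPM in those without (-0.70, SE 0.11, adjusted p = 0.000816, edgeR). The Klrg1 ligand Cdh1 was higher with a CD8 UMI (2.16, SE 0.28, adjusted p = 0.000175, edgeR), and Cdh2 averaged 241 CPM in astrocytes, 207 CPM in ependymal cells and 147 CPM in neurons.

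The genes whose levels ran most like those of a receptor were ranked by Pearson's r of log2(CPM + 1) over 12 sums (the 3 lymphocyte populations in each of 4 libraries), among 6692 genes of at least 20 CPM on average in 1 of the populations. Klrb1c was followed by Cited4 (r = 0.983), its relative Klrb1b (0.980) and Parp8 (0.974), and Ncr1 by Nrgn (0.986), Rgs18 (0.983) and Klrb1b (0.968). Klrb1b is also 1 of the markers by which the NK cluster was named. Klrk1 was most like Litaf (0.951) and Cd244a (0.940), the latter another NK receptor, and Klrd1 most like Tnfsf10 (0.953), the death ligand TRAIL, the chemokine Xcl1 (0.936) and the integrin Itga1 (0.934). Klre1 was most like Atp1b1 (0.953), Klrc1 like A330023F24Rik (0.939), Klrc2 like A630072M18Rik (0.945) and Klrg1 like Ifi30 (0.879). The sums share libraries and depth, and the values describe likeness over these sums without a test.

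In microglia, 6 of the 9 ligand genes were tested between the antibody groups and 0 were called, with 0 of 17009 genes called overall (0%; 1472 at an unadjusted p under 0.05; DESeq2 called 50). The lowest value was that of H2-T23, -0.45 (SE 0.13, adjusted p = 0.552, edgeR), and Raet1e was at 0.06 (SE 0.13).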

How the data were processed

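The measurement was single-cell RNA sequencing with a droplet-based 3′ method and UMIs. Per the submitters' processing notes the authors used Cell Ranger 7.1.0 with build GRCm39. Neither the annotation nor the handling of intronic reads is stated in these sources. The deposited values are raw UMI counts per gene and barcode, whole numbers without normalization. The members and gene lists were chosen with earlier results of these data known.

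Barcodes needed 300 genes or more and no more than 20% mitochondrial UMIs. Doublets were removed by their Scrublet score (the top 0.8% of a library for every 1000 cells; 332, 353, 511 and 562 barcodes). Clustering used scanpy 1.11.5 with leidenalg 0.10.2 (3000 variable genes, 30 components, 15 neighbours, resolution 1, 27 clusters). The variable genes excluded the 8 receptor genes, Cd8a, Cd8b1, immunoglobulin, T cell receptor and sex-linked genes. A cluster of a class other than microglia was named when its markers had a mean log2 fold of 1.5 or more, and 0.3 more than those of any other class. Microglia instead needed at least 5 of 10 markers at 2 times the level of the macrophage cluster. The threshold of 1.5 was not applied to them, and their clusters had a mean log2 fold of 0.130 to 1.78. 10617 cells in mostly myeloid clusters stayed unnamed.

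Counts were summed per library and population and tested with edgeR 4.0.16 (TMM, filterByExpr, quasi-likelihood test), called at a Benjamini-Hochberg adjusted p under 0.05. The design was 2 libraries against 2, or 8 sums with the library as a block for the comparison by CD8 UMI, from which Cd8a and Cd8b1 were left out. An SE is the size of the log2 fold change over the square root of F, and 95% limits are ±1.96 SE. The code was tested on simulated counts with known changes. CPM are without TMM. Binomial intervals are exact (Clopper-Pearson, 95%) and cover counting error only. Floors are 3 UMIs. Thinning drew 2000 UMIs per cell.

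All 8 genes are described in every population. Of each list, the genes past the threshold and at most 4 of high level are named. Alternatives were DESeq2 1.42.0, other scaling, filters, clusterings, cell selections, a replicate block and each library left out. No paired design was used, since replicate numbers name libraries only. Promoters came from RefSeq tables and transcript words from GENCODE vM21, both on GRCm38.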

Additional observations from a re-analysis of the deposited data

How the results depend on the processing

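The antibody contrasts called 0 of the 8 receptor genes in NK cells as well as in all T cells and both T cell populations under edgeR with each scaling, expression filter, clustering, cell selection and CD8 split tried, and under DESeq2. Calls appeared where a library was left out: 0 to 1 members in each of these 4 contrasts, and 0 to 3 for the interaction. The comparison by CD8 UMI called 3 members; it called 1 with DESeq2 and 1 in the larger T cell cluster alone, and 1 to 4 with a library left out. The cause was not tested.

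Counts over all genes moved more. In all T cells, 134 genes were called, against 85 with DESeq2, 564 with no expression filter, 50 without doublet removal, 76 with the stricter cell filter (a minimum of 500 genes and a maximum of 10% mitochondrial UMIs), 4 in the larger cluster alone and 115 to 477 with a library left out. In T cells with a CD8 UMI the count was 0, against 15 with DESeq2, 196 with no expression filter, 6 with the stricter cell filter, 1 at Leiden resolution 2, 1 for T cells with a CD3 UMI, 2 with the CD8 split after thinning and 0 to 142 with a library left out. In T cells without a CD8 UMI it was 0, against 27 with no expression filter, 3 with the split after thinning and 10 to 34 with a library left out. In NK cells it was 1, against 0 without TMM, 0 with no expression filter, 0 without doublet removal, 0 with the receptor genes among the variable genes, 2 with DESeq2 and 6 to 228 with a library left out. The comparison by CD8 UMI called 1232, against 768 with DESeq2, 406 in the larger cluster, 764 with the split after thinning and 753 to 1287 with a library left out. The interaction had 2, against 63 with no expression filter, 0 without doublet removal, 11 with the stricter filter, 1 in the larger cluster, 1 with the split after thinning and 1 to 116 with a library left out. In microglia it was 0, against 50 with DESeq2, 532 with no expression filter and 0 to 410 with a library left out; of the ligands, 1 was called with no expression filter and 0 to 1 with a library left out.

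The sign of single receptors' log2 fold changes turned under the following alternatives, in each case from a value that had not been called. In the larger cluster alone, the antibody contrast of all T cells was 0.14 for Klrd1, 0.13 for Klrc2 and 0.076 for Klre1, that of T cells without a CD8 UMI was -0.013 for Klrc1, and the comparison by CD8 UMI was -0.20 for Klrk1 and -0.17 for Klrc2. With the split after thinning, the antibody contrast was 0.036 for Klrk1 with a CD8 UMI, and -0.19 for Klrc1, -0.039 for Klrc2 and 0.23 for Klrb1c without one, and the interaction of Klrg1 was 0.61. Without doublet removal, Klrc2 was at 0.12 with a CD8 UMI and Klrb1c at 0.37 without one. In T cells without a CD8 UMI, Klrc2 was at -0.14 at Leiden resolution 2 and at -0.066 among cells with a CD3 UMI. With the stricter filter, Klrb1c was at 0.11 and Ncr1 at 0.11 in NK cells, and Klre1 at 0.38 in the comparison by CD8 UMI. With no expression filter, Klrk1 was at 0.085 in NK cells.

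With each library left out in turn, the sign turned for these genes. In the antibody contrast of all T cells, the value ran for Klrk1 from -0.69 to 0.070, for Klrd1 from -0.49 to 0.19 and for Klrc2 from -0.23 to 0.10. In that of T cells with a CD8 UMI, the value ran for Klrk1 from -0.85 to 0.31, for Klrd1 from -0.41 to 0.92, for Klrc1 from -1.26 to 0.38, for Klrc2 from -0.80 to 0.39 and for Klre1 from -1.17 to 0.68. In that of T cells lacking one, the value ran for Klrd1 from -0.95 to 0.089, for Klrc1 from -0.16 to 0.49, for Klrc2 from -0.093 to 1.11, for Klrb1c from -0.40 to 0.13 and for Klrg1 from -1.22 to 0.31. In that of NK cells, the value ran for Klrk1 from -0.045 to 0.038, for Klrd1 from -0.15 to 0.99, for Klrc1 from -0.98 to 0.27, for Klrc2 from -0.34 to 0.065, for Klre1 from -0.70 to 0.54 and for Ncr1 from -0.95 to 0.25. In the comparison by CD8 UMI, the value ran for Klrk1 from -0.034 to 0.48 and for Klre1 from -0.90 to 0.28. In the interaction, the value ran for Klrk1 from -0.64 to 0.95, for Klrd1 from -0.38 to 1.99, for Klrc1 from -1.76 to 0.50, for Klrc2 from -1.38 to 0.42, for Klre1 from -0.55 to 2.00 and for Klrg1 from -3.26 to 1.26.

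Whether replicate numbers pair the libraries cannot be decided from 2 pairs. The correlation of the deviations of same-numbered libraries was between -0.0444 and 0.0923 over genes in the 5 antibody contrasts. With the replicate number as a block, 351 genes were called in all T cells, 195 in T cells with a CD8 UMI (Klre1 at -0.041), 10 in NK cells and 13 in microglia, and 0 of the 8 receptor genes in any of them. T cells without a CD8 UMI had 0 called genes under the replicate block.

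Shares depend on depth. The mean share of cells with a Klrk1 UMI over the 4 libraries was 53.4% in NK cells, 28.9% in T cells with a CD8 UMI and 21.1% in those lacking one at 2000 UMIs per cell. It was 26.8% in NK cells and 11.9% in the last population at 1000 UMIs, and 87.4%, 43.8% and 30.7% with no thinning. Receptor genes per cell were 2.85 in NK cells, 0.986 in T cells with a CD8 UMI and 0.61 in those lacking one at 2000 UMIs, and 1.68, 0.548 and 0.323 at 1000 UMIs. The order of these means was the same at each depth. By library at 2000 UMIs, Klrk1 was less frequent with than without a CD8 UMI in IgG replicate 2 (18.8% against 21.4%). The same held in anti-CD8 replicate 2 (19.5% against 22.6%). It was more frequent in IgG replicate 1 (34.5% against 22.6%) and anti-CD8 replicate 1 (42.7% against 17.8%). At resolution 2, T cell clusters were kept by their marker score alone. The NK sum of IgG replicate 1 rests on 9 cells, and leaving out a library leaves 1 library in a group, which is assumed to vary like the others.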
